A study of Homo sapiens with 21 samples.

Results

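Somatostatin, encoded by SST, is the hormone of the islet delta cell. SST and 6 genes known from delta cells, HHEX, LEPR, RBP4, BCHE, POU3F1 and CASR, were followed through RNA sequencing of islet cells made from H1, a line of human embryonic stem cells. The genes were chosen by symbol, and all 7 were found among the 62699 genes used and passed the filter on low counts. Unedited cells (WT) and cells labelled ISL1-/-, PAX6-/- or PDX1-/- received, on day 11, a lentivirus with either ISL1-IRES2-BFP or only BFP. Cells positive for BFP were then collected by flow sorting on day 18. BFP is a blue fluorescent protein that marks transduced cells. The 21 libraries fall into 8 groups, of 2 libraries for both WT groups and for PDX1-/- with ISL1 and of 3 for the other 5. The design text calls them biological replicates without saying whether they are separate differentiations, so the p-values measure the spread between these libraries. The number of clones behind each knockout is not given in the sources used here.

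Delta cells secrete somatostatin, which acts on neighbouring alpha and beta cells through G-protein-coupled receptors and lowers the release of glucagon and insulin. HHEX is a homeodomain transcription factor that is required for delta cells in the mouse. ISL1, PAX6 and PDX1 are homeodomain transcription factors of the endocrine pancreas. PDX1 has also been described, under another name, as an activator of the somatostatin promoter. LEPR is the leptin receptor, CASR the calcium-sensing receptor, RBP4 the plasma carrier of retinol, BCHE butyrylcholinesterase and POU3F1 a POU-domain transcription factor. RBP4 is also strongly made by liver, HHEX by early endoderm and endothelium, and CASR by several epithelia.

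The promoters of SST, the hormone gene, and of HHEX, the transcription factor required for delta cells in the mouse, are shown. Any part of these sequences in the results was not tested. The 250 bases before the transcript start are from RefSeq, assembly GRCh38.p14, chr3:187670395-187670644 on the minus strand for SST and chr10:92689705-92689954 on the plus strand for HHEX, read 5′ to 3′ in the direction of the gene. Capitals mark CTAATG, a homeodomain core with flanks, and TGACGTCA, the cAMP response element, in SST, and the reverse complement of CCAAT in HHEX.
SST: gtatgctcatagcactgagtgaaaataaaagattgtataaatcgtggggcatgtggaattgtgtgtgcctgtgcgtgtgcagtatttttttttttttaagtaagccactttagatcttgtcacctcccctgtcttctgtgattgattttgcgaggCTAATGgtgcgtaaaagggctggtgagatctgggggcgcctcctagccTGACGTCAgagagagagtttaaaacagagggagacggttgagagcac
HHEX: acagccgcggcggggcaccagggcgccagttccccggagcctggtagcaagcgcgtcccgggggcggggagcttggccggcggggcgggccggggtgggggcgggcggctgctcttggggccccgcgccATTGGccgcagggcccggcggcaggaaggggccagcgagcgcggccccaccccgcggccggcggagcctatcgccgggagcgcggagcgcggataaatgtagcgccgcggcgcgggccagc
Counted back from the start, the SST window holds TGACGTCA at 47 to 40 bases and CTAATG at 95 to 90 bases. TGACGTCA is in 1.63% and CTAATG in 5.58% of 34943 promoter windows of this length, with both strands searched. The TAAT of CTAATG lies within it. TAAT is in 47.5% of windows, and the window of BCHE also holds CTAATG. The HHEX window holds neither TGACGTCA nor TAAT. It has CCAAT on the minus strand at 121 to 117 bases, a motif present in 32% of windows, and a GC content of 81.2% against 45.6% in SST. No binding was measured here, and a match is a description of these letters.

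Totals ran from 36.8 to 60.2 M counts (1e6) per library, with a median of 50.4 M. Levels are given as CPM, counts per 1e6 counts after TMM scaling. PDX1-/- with ISL1 replicate 4 and PAX6-/- with ISL1 replicate 3 stand apart, with 3.84% and 3.16% of their counts from mitochondrial genes against 1.28% to 1.93% in the other 19 libraries, and results that rest on them are given with and without them. ISL1 itself was at 73.7 to 82.4 CPM in ISL1-/- with BFP and 71.6 to 96.8 with ISL1, and in WT at 306 to 519 and 338 to 361, so its level did not separate the vectors. The terms ISL1-labelled and BFP-labelled are used for that reason, and every direction for the vector rests on the labels. PAX6 was at 94.9 to 318 CPM in the PAX6-/- libraries and 140 to 232 in WT, and PDX1 at 80.5 to 138 in the PDX1-/- libraries and 80.0 to 102 in WT, so these levels do not show the knockouts. Of the other delta-cell genes GHSR and PRG4, the highest counts in any library were 15 and 29.

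SST (ENSG00000157005.4, GRCh38 chromosome 3, 187668912 to 187670394, minus strand) spanned the widest range of the 7 genes, from 22 to 11575 counts. The BFP-labelled WT libraries had 92.7 and 139 CPM, with a mean of 116 ± 32.4 (SD, n = 2). The 3 BFP-labelled ISL1-/- libraries had 0.390, 0.572 and 0.560 CPM, or 0.337% to 0.495% of the WT mean. PAX6-/- libraries with BFP had 10.9, 4.66 and 16.7 CPM, and PDX1-/- libraries with BFP had 26.3, 26.2 and 7.02 CPM. All 9 knockout libraries were therefore below both WT libraries, and ISL1-/- was also below the other knockouts without overlap. Of all genes tested, 51.6%, 48.5% and 52.4% did not overlap between WT and ISL1-/-, PAX6-/- and PDX1-/-, all with BFP. For ISL1-/- against PAX6-/- and PDX1-/- with BFP the shares were 22.9% and 38.8%. A lack of overlap was thus common between groups this small. The labels name sorted bulk cells, in which fewer SST-expressing cells and less SST RNA per cell cannot be told apart.

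In the edgeR quasi-likelihood test with Benjamini-Hochberg adjustment, SST fell in ISL1-/- with BFP against WT with BFP, with a log2 difference of -7.82 (SE 1.03, adjusted p 0.000258), a 226.5-fold difference. It stayed past the threshold of 0.05 in each of the 7 fits that left out a library, with a highest adjusted p of 0.00364. In PAX6-/- it fell with a log2 difference of -3.43 (SE 0.85, adjusted p 0.0251). That call was lost in each of the 5 fits without a compared library, with a log2 fold change from -3.90 to -3.07 and an adjusted p of up to 0.149 without WT with BFP replicate 3. In PDX1-/- the log2 fold change was -2.54 (SE 0.83, adjusted p 0.0612), which did not pass. It passed without PAX6-/- with ISL1 replicate 3 (-2.54, adjusted p 0.00639) or without PDX1-/- with ISL1 replicate 4 (-2.57, adjusted p 0.0359), neither of which is in that comparison. SST in PDX1-/- also passed in 3 of the 4 other settings that gave an adjusted p (1.73e-05 to 0.0758 over the 4). The 3 comparisons with WT share the same pair of WT libraries.

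The knockouts were also set against each other within the BFP vector. SST was lower in ISL1-/- than in PAX6-/- with a log2 difference of -4.40 (SE 0.88, adjusted p 0.00945) and lower than in PDX1-/- by -5.28 (SE 0.91, adjusted p 0.00254). The first call was lost without any of the 3 ISL1-/- libraries (adjusted p up to 0.0639), and the second was kept in all 8 fits with a library left out. Between PAX6-/- and PDX1-/- the log2 fold change was -0.88, with a 95% interval from -2.46 to 0.69.

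**Figure D1:**
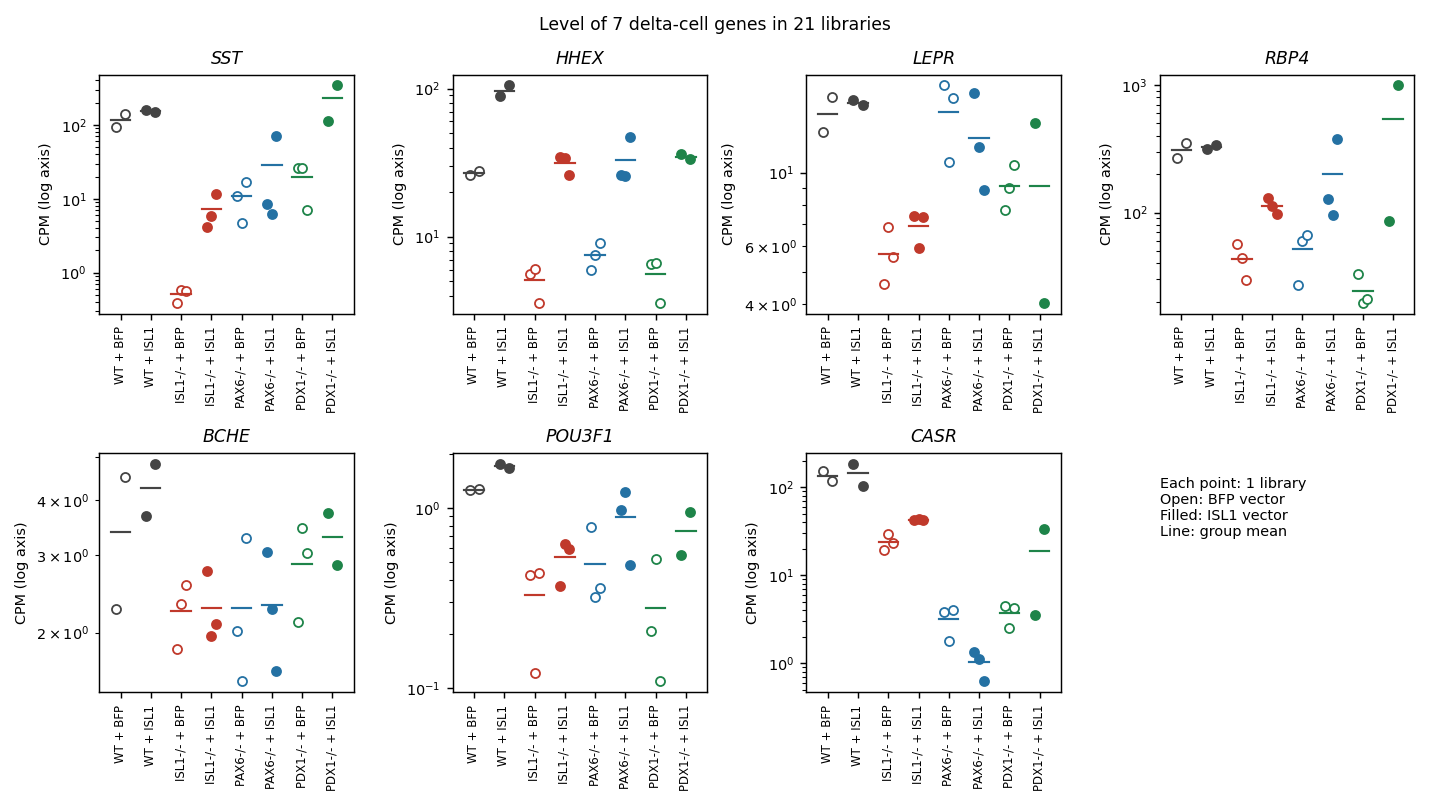
Level of each of the 7 genes in CPM on a log axis, with 1 point per library, open for the BFP vector and filled for the ISL1 vector, and a line at each group mean. SST is lowest in the 3 ISL1-/- libraries with BFP, at 0.390 to 0.572 CPM, and HHEX is higher in every ISL1-labelled library than in any BFP-labelled library of the same genotype.

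The ISL1 vector was compared with BFP within each genotype. The vector groups did not overlap for 41.6%, 24.9%, 16% and 33.6% of all genes tested in WT, ISL1-/-, PAX6-/- and PDX1-/-. ISL1-labelled ISL1-/- libraries had 4.15, 5.82 and 11.5 CPM of SST, all above the BFP-labelled libraries and all at 3.59% to 9.98% of the WT mean with BFP. The log2 fold change was 3.81 (SE 0.87, adjusted p 0.0727), which did not pass. It passed without PAX6-/- with ISL1 replicate 3 (3.81, adjusted p 0.00531) or PDX1-/- with ISL1 replicate 4 (3.78, adjusted p 0.0337), and in each of the 4 other settings that gave an adjusted p (0.000699 to 0.0246).

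In PDX1-/- the 2 ISL1-labelled libraries had 115 CPM of SST (replicate 2) and 343 CPM (replicate 4). Both lay above the 3 BFP-labelled libraries, and the first was at 99.2% of the WT mean with BFP. SST rose, with a log2 difference of 3.53 (SE 0.85, adjusted p 0.014). With the replicate block, with only the PDX1-/- groups fitted or with limma voom, the calls in PDX1-/- for SST, RBP4 and CASR did not hold (adjusted p up to 0.38, 0.269 and 0.967). The block fits replicate 4 exactly, as no other library has that number, and voom weighted replicates 2 and 4 at 0.092 and 0.099. The value without replicate 4 was 2.57 (adjusted p 0.175), and without PDX1-/- with BFP replicate 3 it was 3.13 (adjusted p 0.065), so the call was lost in both cases.

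The vector groups of PAX6-/- overlapped in SST, with 8.57, 6.14 and 71.8 CPM for ISL1. The log2 fold change was 1.42 (SE 0.75, adjusted p 0.522), and -0.55 without ISL1 replicate 3, the library at 71.8 CPM. In WT the 159 and 149 CPM with ISL1 lay just above the BFP libraries, with a log2 difference of 0.41 (95% interval -1.49 to 2.31, adjusted p 1). The vector effect on SST was larger in ISL1-/- than in WT by 3.40 (95% interval 0.79 to 6.00, adjusted p 1) and in PDX1-/- by 3.12 (0.52 to 5.71, adjusted p 0.23). Neither difference passed, although that for PDX1-/- had an adjusted p of 0.0367 without ISL1 replicate 2 of PDX1-/-. With the ISL1 vector in both, SST was lower in ISL1-/- than in WT with a log2 difference of -4.42 (SE 0.88, adjusted p 0.00854). This call was lost without ISL1-/- with ISL1 replicate 1 (-4.15, adjusted p 0.0522) or replicate 2 (-4.29, adjusted p 0.0528). In PAX6-/- against WT the value was -2.42 (adjusted p 0.124), and -4.39 (adjusted p 0.00302) without PAX6-/- with ISL1 replicate 3. It also passed with no filter (adjusted p 0.0115), with the replicate block (0.0218) and with limma voom (3.79e-06), which weighted that replicate at 0.071. In PDX1-/- it was 0.57 (adjusted p 0.756), and ran from -0.40 to 1.16 with a library left out.

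SST was also set against the other islet hormones, as its share of the summed CPM per kb of exon of INS, GCG, SST, GHRL and PPY. The share was 0.579% and 0.749% in WT with BFP and 0.0184% to 0.0348% in ISL1-/- with BFP. In PAX6-/- with BFP it was 0.313% to 0.967%, a range that contains both WT values although the CPM of SST was lower there. The other hormones in the sum had also moved: GCG, the glucagon transcript, was 57.8% and 70.8% of it in WT and 0.269% to 1.15% in PAX6-/-, with a log2 difference of -10.06 (adjusted p 0.000151), and GHRL, ghrelin, made up 49.5% to 63.8% in PAX6-/-. The share is therefore relative to a sum that differs between genotypes. PDX1-/- with BFP had 0.164% to 0.648%. The ISL1-labelled ISL1-/- libraries had 0.178% to 0.313%, above their BFP libraries and below WT. In PDX1-/- with ISL1 the share was 3.48% in replicate 2 and 0.670% in replicate 4, so the library with the most SST in CPM did not have the largest share.

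**Figure D2:**
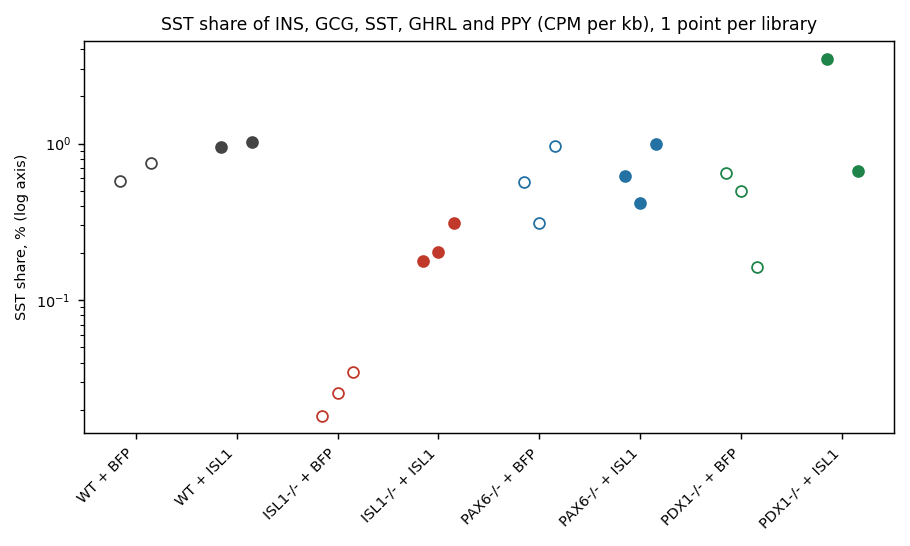
SST as a percent of the summed CPM per kb of 5 islet hormone transcripts, on a log axis, 1 point per library, open for BFP and filled for ISL1. ISL1-/- with BFP lies apart at 0.0184% to 0.0348%, while PAX6-/- and WT overlap.

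HHEX (ENSG00000152804.11, chromosome 10, 92689955 to 92695647, plus strand) was lower in every BFP-labelled knockout and higher in every ISL1-labelled group. The BFP-labelled WT libraries had 26.3 and 27.9 CPM. The ISL1-/- libraries had 5.61, 6.03 and 3.58 CPM, the PAX6-/- libraries 5.91, 7.57 and 9.00, and the PDX1-/- libraries 6.52, 6.68 and 3.58. The 3 knockouts overlapped each other and none reached WT. HHEX fell, with a log2 difference of -2.42 (SE 0.31, adjusted p 0.000221) in ISL1-/-, -1.85 (SE 0.31, adjusted p 0.00243) in PAX6-/- and -2.28 (SE 0.31, adjusted p 0.000415) in PDX1-/-. These 3 calls were kept in every fit that left out a library and in the 5 other settings tried.

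With the ISL1 vector HHEX had 34.6, 34.1 and 26.1 CPM in ISL1-/-, 26.2, 25.8 and 46.8 CPM in PAX6-/-, and 36.1 and 33.3 CPM in PDX1-/-. These 8 libraries were at 95.2% to 173% of the WT mean with BFP. HHEX rose, with a log2 difference of 2.64 (SE 0.30, adjusted p 0.000346) in ISL1-/-, 2.13 (SE 0.29, adjusted p 0.00487) in PAX6-/- and 2.63 (SE 0.31, adjusted p 0.000115) in PDX1-/-. All 3 calls were kept with any library left out. The fit on only the PAX6-/- groups gave an adjusted p of 0.49, and the fit on only the PDX1-/- groups and limma voom also lost the call in PDX1-/- (adjusted p up to 0.216).

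WT with ISL1 had the highest HHEX, at 88.5 and 105 CPM, above every other library. Its log2 fold change over BFP was 1.84 (SE 0.35, adjusted p 0.0854), a 3.571-fold difference that did not pass. It passed without PAX6-/- with ISL1 replicate 3 (adjusted p 0.0248) or PDX1-/- with ISL1 replicate 4 (adjusted p 0.0337), and in 4 of 5 other settings. The vector effect in each knockout minus that in WT was 0.80 (95% interval -0.13 to 1.73) in ISL1-/-, 0.30 (-0.63 to 1.22) in PAX6-/- and 0.79 (-0.18 to 1.76) in PDX1-/-. None of these differences passed. With the ISL1 vector in both, HHEX was lower than in WT in ISL1-/- (-1.61, SE 0.31, adjusted p 0.00643) and PAX6-/- (-1.56, SE 0.31, adjusted p 0.008), and both calls were lost without WT with ISL1 replicate 2 (adjusted p 0.0829 and 0.0999). In PDX1-/- the log2 fold change was -1.48 (adjusted p 0.0629), past the threshold without PAX6-/- with ISL1 replicate 3 (adjusted p 0.0142) or PDX1-/- with ISL1 replicate 2 (adjusted p 0.0148). HHEX thus stood near the WT BFP level in ISL1-labelled ISL1-/- libraries in which SST was at most 9.98% of its own WT mean with BFP.

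RBP4 (ENSG00000138207.15, chromosome 10, 93591687 to 93601744, minus strand) carries retinol in plasma. It had 267 and 350 CPM in WT with BFP, and per kb of exon its level there, 212 ± 40.0 CPM per kb (SD, n = 2), was close to that of SST, 190 ± 53.4. BFP-labelled ISL1-/- libraries had 56.5, 44.4 and 29.4 CPM, PAX6-/- libraries 27.2, 60.2 and 67.2, and PDX1-/- libraries 32.7, 19.6 and 21.0. All 9 were below WT. RBP4 fell, with a log2 difference of -2.83 (SE 0.69, adjusted p 0.0209) in ISL1-/-, -2.58 (SE 0.68, adjusted p 0.034) in PAX6-/- and -3.66 (SE 0.71, adjusted p 0.0034) in PDX1-/-. The first 2 calls were lost without any of the compared libraries (adjusted p up to 0.127 and 0.189, both without WT with BFP replicate 3), while that in PDX1-/- was kept in all 7 fits.

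The level of RBP4 under the ISL1 vector differed most between libraries of 1 group in PDX1-/-, with 85.9 CPM in replicate 2 and 994 CPM in replicate 4. RBP4 rose over BFP in PDX1-/- with a log2 difference of 4.46 (SE 0.73, adjusted p 0.00132), and by 1.84 (adjusted p 0.0913) without replicate 4. The effect exceeded that in WT by 4.38 (SE 1.04, adjusted p 0.0478), a call kept in 2 of 10 fits with a library left out. It was 1.78 (adjusted p 0.524) without replicate 4. In ISL1-/- the vector groups did not overlap, at 131, 112 and 97.1 CPM with ISL1, and the log2 fold change was 1.38 (adjusted p 0.595). PAX6-/- with ISL1 had 129, 95.3 and 375 CPM, the last in replicate 3. The log2 fold change was 1.95 (SE 0.63, adjusted p 0.261), and 1.12 without replicate 3, which did not pass either. It passed without PDX1-/- with ISL1 replicate 4 (1.93, adjusted p 0.0277). WT with ISL1 had 314 and 339 CPM, within the BFP range. Against it, PDX1-/- with ISL1 had a log2 difference of 0.73 (adjusted p 0.624). This was 1.61 without replicate 2 and -1.90 without replicate 4, so its direction rests on 1 library.

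Liver and endoderm markers moved with RBP4 in some comparisons and not in others. The summed CPM of ALB, AFP, APOA1, APOB, FGB and SERPINA1 was 14900 to 16910 in WT with BFP, 6508 to 9203 in ISL1-/-, 5115 to 7034 in PAX6-/- and 3664 to 4191 in PDX1-/-. Against WT with BFP, the number of the 6 genes that fell was 2 for ISL1-/-, 4 for PAX6-/- and 5 for PDX1-/-, beside 3.92%, 3.26% and 5.65% of all genes. With the vector in PDX1-/- the sum was 6688 in replicate 2 and 22740 in replicate 4. There 5 of 6 rose, beside 8.19% of all genes, and 1 of 6 without replicate 4, beside 2.12%.

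In the other genotypes the summed markers under the vector were lower than with BFP or overlapped it. The sum in WT with ISL1 was 8592 to 10410, below the BFP libraries, while RBP4 had a log2 difference of 0.08. In ISL1-/- with ISL1 it was 5946 to 8069, and all 6 markers had a negative log2 difference (median -0.24, none passing), while RBP4 had 1.38. In PAX6-/- with ISL1 it was 5463 to 6746, with 3 markers positive and 3 negative, while RBP4 had 1.95. None of the 6 was at 0 in a group, and their part in the RBP4 and HHEX results was not tested. RBP4 also overlaps FFAR4 on the opposite strand, and the strand setting of the counting is not given. FFAR4 counts were 0.156% to 57.6% of those of RBP4, highest in PAX6-/- with BFP (16.8% to 57.6%), where RBP4 was nonetheless lower than in WT.

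CASR (ENSG00000036828.17, chromosome 3, 122183668 to 122291629, plus strand) senses extracellular calcium. It set the ISL1 knockout apart from the other knockouts in the opposite direction to SST. With BFP, WT had 151 and 119 CPM, ISL1-/- 19.2, 29.3 and 23.04, PAX6-/- 3.86, 1.80 and 4.01, and PDX1-/- 4.45, 2.50 and 4.28. The 3 levels, WT above ISL1-/- above the other knockouts, did not overlap. Against WT, CASR fell, with a log2 difference of -2.50 (SE 0.58, adjusted p 0.016) in ISL1-/-, -5.39 (SE 0.64, adjusted p 0.000143) in PAX6-/- and -5.17 (SE 0.64, adjusted p 0.000207) in PDX1-/-. The last 2 calls were kept with any library left out. That in ISL1-/- was lost without ISL1-/- with BFP replicate 1 (adjusted p 0.0723) or 3 (0.0728) or WT with BFP replicate 1 (0.109) or 3 (0.0561). CASR was higher in ISL1-/- than in PAX6-/- by 2.89 (SE 0.56, adjusted p 0.00727) and than in PDX1-/- by 2.67 (SE 0.55, adjusted p 0.00857). The first held with any library left out, and the second was lost without PDX1-/- with BFP replicate 2 (2.45, adjusted p 0.063).

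The ISL1-labelled libraries had 42.7, 43.3 and 42.2 CPM of CASR in ISL1-/- and 1.34, 1.13 and 0.629 CPM in PAX6-/-. Neither group overlapped its BFP libraries, one lying above and the other below. The log2 fold changes were 0.84 (SE 0.52, adjusted p 0.851) and -1.64 (SE 0.56, adjusted p 0.297), and neither passed. The value in PAX6-/- passed without PDX1-/- with ISL1 replicate 4 (-1.65, adjusted p 0.0202) and with the replicate number as a block (adjusted p 0.0223). The difference between these 2 effects, 2.48 (95% interval 0.87 to 4.08, adjusted p 0.98), did not pass either. In PDX1-/- with ISL1, replicate 2 had 3.55 CPM, within the BFP range, and replicate 4 had 33.8. The log2 fold change of 2.31 (SE 0.58, adjusted p 0.0178) passed, and was -0.05 (adjusted p 0.983) without replicate 4. It also did not pass without PDX1-/- with BFP replicate 2 (2.09, adjusted p 0.0745) or 3 (2.42, adjusted p 0.0558). WT with ISL1 had 185 and 102 CPM, around the BFP libraries.

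With the ISL1 vector CASR was lower in PAX6-/- than in WT with a log2 difference of -7.11 (SE 0.70, adjusted p 1.99e-05), a call kept in every alternative. In ISL1-/- the value was -1.75 (adjusted p 0.103), past the threshold without PDX1-/- with ISL1 replicate 4 (adjusted p 0.00459). The value in ISL1-/- also passed in the 5 other settings (adjusted p 1.76e-05 to 0.0415). In PDX1-/- the log2 difference was -2.95 (adjusted p 0.0597). It passed without PDX1-/- with ISL1 replicate 2 (-2.09, adjusted p 0.00786) or replicate 4 (-5.31, adjusted p 0.000148) or PAX6-/- with ISL1 replicate 3 (adjusted p 0.0267). Of the endothelial markers, KDR ran from 14.4 to 24.02 CPM in WT with BFP, 4.02 to 6.81 in ISL1-/-, 1.49 to 3.02 in PAX6-/- and 1.25 to 3.99 in PDX1-/-. PECAM1 and CDH5 were at most 0.484 and 1.41 CPM in any library.

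LEPR (ENSG00000116678.20, chromosome 1, 65420652 to 65641559, plus strand), the receptor for leptin, had 4.03 to 18.4 CPM over all libraries. It had 13.3 and 16.9 CPM in WT with BFP, 4.604, 6.86 and 5.54 in ISL1-/-, 18.4, 10.8 and 16.8 in PAX6-/-, and 7.71, 8.99 and 10.6 in PDX1-/-. ISL1-/- lay below all other BFP libraries. LEPR fell there, with a log2 difference of -1.41 (SE 0.39, adjusted p 0.0402) against WT and of -1.43 (SE 0.36, adjusted p 0.0384) against PAX6-/-. The first call was lost without any of the 5 compared libraries (adjusted p up to 0.264, without WT with BFP replicate 3). The second was lost without any ISL1-/- library with BFP or replicate 1 or 3 of PAX6-/- with BFP (adjusted p up to 0.195). In PAX6-/- the log2 fold change against WT was 0.02 (95% interval -0.80 to 0.85), and in PDX1-/- -0.73 (-1.55 to 0.08).

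The vector gave no call for LEPR in any genotype. ISL1-labelled libraries had 7.37, 5.92 and 7.33 CPM in ISL1-/-, 17.4, 11.9 and 8.85 in PAX6-/-, and 16.6 and 16.1 in WT. The intervals of the log2 fold change were -0.46 to 1.02, -1.002 to 0.47 and -0.79 to 1.01. In PDX1-/-, replicate 2 had 14.2 CPM and replicate 4 had 4.03, the lowest LEPR of all libraries and opposite to that library's high SST, RBP4 and CASR. The log2 fold change of 0.01 became -1.17 (adjusted p 0.0215) without replicate 2. With the ISL1 vector, LEPR in ISL1-/- against WT was -1.25 (adjusted p 0.084), and passed without PDX1-/- with ISL1 replicate 4 (adjusted p 0.0112). In PDX1-/- against WT it was -0.84, which passed without PDX1-/- with ISL1 replicate 2 (-2.02, adjusted p 0.00452). LEPR overlaps LEPROT on the same strand, which had 4079 to 7046 counts against 136 to 898 for LEPR, so its count depends on how shared reads were assigned.

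POU3F1 (ENSG00000185668.8, chromosome 1, 38043829 to 38046793, minus strand) had 5 to 84 counts per library. WT libraries had 1.25 and 1.27 CPM with BFP and 1.76 and 1.67 with ISL1, above every knockout library, of which the highest had 1.22. Against WT with BFP it fell in PDX1-/- with a log2 difference of -2.15 (SE 0.59, adjusted p 0.029). The call was lost without PDX1-/- with BFP replicate 1 (adjusted p 0.0959) or 3 (0.116) or WT with BFP replicate 1 (0.141) or 3 (0.113). In ISL1-/- the value was -1.94 (adjusted p 0.0627), which passed without PAX6-/- with ISL1 replicate 3 (0.035) or PDX1-/- with ISL1 replicate 4 (0.0394). The value in ISL1-/- also passed in the 5 other settings (adjusted p 0.0018 to 0.0401). In PAX6-/- the difference was -1.37 (adjusted p 0.198). The vector effect was from 0.44 in WT to 1.38 in PDX1-/- and passed in no genotype.

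BCHE (ENSG00000114200.10, chromosome 3, 165772904 to 165837462, minus strand), an esterase, had 78 to 232 counts per library and from 1.55 to 4.84 CPM. It passed in none of the 17 comparisons. Group means ran from 2.24 ± 0.37 CPM (SD, n = 3) in ISL1-/- with BFP to 4.26 ± 0.82 (SD, n = 2) in WT with ISL1, and every neighbouring pair in this order overlapped. Its log2 fold change against WT with BFP was -0.59 (95% interval -1.36 to 0.19) in ISL1-/-, -0.57 (-1.34 to 0.21) in PAX6-/- and -0.23 (-1.01 to 0.54) in PDX1-/-.

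Counted over the 7 genes, 5 fell in ISL1-/- with BFP against WT. Of the 25884 genes tested, 5.59% passed there and 3.92% fell. In PAX6-/- 4 of the 7 fell, beside 5.51% of all genes passing, 3.26% lower and 2.25% higher. In PDX1-/- 4 fell, beside 9.68% passing and 5.65% lower. All 7 genes but BCHE thus fell in at least 1 knockout, and the 3 shares of all genes are the background for these counts.

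Markers of other endocrine cells moved in the same comparisons. Of all genes, 1.67%, 2.25% and 4.03% rose in ISL1-/-, PAX6-/- and PDX1-/- against WT with BFP, and 3.92%, 3.26% and 5.65% fell. With the vector, 0%, 0.131%, 0.185% and 4.33% of all genes fell in WT, ISL1-/-, PAX6-/- and PDX1-/-, and 8.19% rose in PDX1-/-. GCG, the alpha-cell hormone transcript, fell in ISL1-/- (-9.04, adjusted p 0.000211). Of 6 beta-cell markers 3, 3 and 4 fell and 1, 0 and 1 rose in ISL1-/-, PAX6-/- and PDX1-/-, with IAPP, islet amyloid polypeptide, at -5.77 in ISL1-/- (adjusted p 0.00196). Of 5 enterochromaffin markers (TPH1, LMX1A, SLC18A1, FEV and DDC) 4, 1 and 5 rose and none fell, and their summed CPM was 844 to 980 in WT, 2161 to 2908 in ISL1-/-, 1309 to 2122 in PAX6-/- and 3583 to 4234 in PDX1-/-. With the vector, 0, 1, 1 and 4 of these 5 fell in WT, ISL1-/-, PAX6-/- and PDX1-/-, and 2 of 5 fell in PDX1-/- without ISL1 replicate 4. In PDX1-/- the vector also raised 3 of 6 beta markers, and 0 without that replicate. Leaving out that replicate also took the enterochromaffin count in PAX6-/- with BFP from 1 to 3 (2 without PAX6-/- with ISL1 replicate 3). Their part in the results for the 7 genes was not tested.

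The vector raised 0 of the 7 in WT, beside 0.027% of all genes passing. In that comparison edgeR gave 1 gene at an unadjusted p under 0.05, and 1 passed in DESeq2 and 1 in limma voom. It raised 1 in ISL1-/-, HHEX (0.382% of all genes passed, 0.251% higher), and 1 in PAX6-/-, again HHEX (0.355% passed, 0.17% higher). In PAX6-/- the replicate numbers were taken to pair the libraries, although the labels do not say so and the reported fit has no pairing. With the replicate number as a block over all 21 libraries, 3 of 7 passed, HHEX and RBP4 higher and CASR lower. With that block HHEX and SST passed in ISL1-/-. Only PDX1-/- with ISL1 replicate 4 has the number 4, so the block fits that library exactly. Pairing and the removal of that library's spread cannot be told apart in these block results. In PDX1-/- the vector raised 4, beside 12.5% of all genes passing, 8.19% higher and 4.33% lower, and 1 of 7 passed without ISL1 replicate 4.

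With the ISL1 vector in both, 2 fell in ISL1-/- against WT (3.72% of all genes passed, 2.69% lower) and 2 in PAX6-/- (3.56% passed, 2.3% lower and 1.26% higher). For PDX1-/- 0 passed in edgeR (0.634% of all genes), with 2 at an unadjusted p under 0.05, 2 in DESeq2 and 0 in limma voom. Between knockouts with BFP, 3 passed for ISL1-/- against PAX6-/- (2.46% of all genes, 1.7% lower and 0.757% higher) and 2 for ISL1-/- against PDX1-/- (5.07%, 2.34% lower). For PAX6-/- against PDX1-/- 0 passed in edgeR (3.04%, with 1.52% in each direction), with 1 at an unadjusted p under 0.05, 0 in DESeq2 and 1 in limma voom. DESeq2 gave no adjusted p for SST, so its counts are over the other 6 genes.

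Differences between vector effects passed for 1 gene, RBP4 in PDX1-/- minus WT, beside 1.19% of all genes, 0.993% higher and 0.197% lower. For ISL1-/- minus WT and for ISL1-/- minus PAX6-/- 0 of 7 passed in edgeR, beside 0.00386% of all genes in each, all higher, with 1 and 2 at an unadjusted p under 0.05. For PAX6-/- minus WT 0 of 7 and 0% of all genes passed, with 0 at an unadjusted p under 0.05. DESeq2 and limma voom gave 0 in these 3.

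The order of the groups by mean level differed between the genes. SST was lowest in ISL1-/- with BFP and highest in PDX1-/- with ISL1, at a mean of 229 CPM. That top place rests on replicate 4, since replicate 2 alone, at 115 CPM, lay below the mean of WT with ISL1 (154) and at that of WT with BFP (116). CASR was lowest in PAX6-/- with ISL1, and RBP4 was lowest in PDX1-/- with BFP. Over the 21 libraries, Pearson's r of log2 CPM was highest between HHEX and RBP4, at 0.84, and was 0.67 between SST and HHEX, 0.19 between SST and CASR and -0.11 between LEPR and CASR. The libraries share groups and depth, so these values describe the set and carry no test. In the plot of SST against HHEX the 3 ISL1-labelled ISL1-/- libraries lie at the HHEX level of WT with BFP and at 4.15 to 11.5 CPM of SST.

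**Figure D3:**
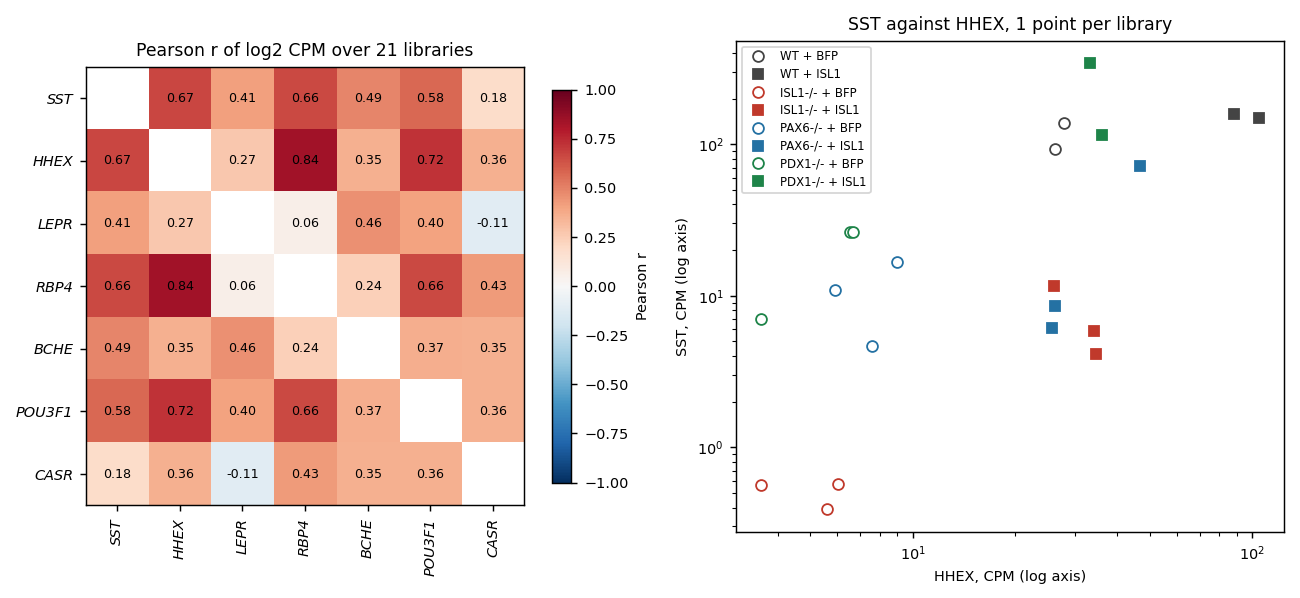
Left, Pearson's r of log2 CPM between each pair of the 7 genes over 21 libraries. Right, SST against HHEX in CPM on log axes, 1 point per library, open circles for BFP and filled squares for ISL1. HHEX and RBP4 have the highest r, 0.84, and libraries with 25.8 to 46.8 CPM of HHEX span 4.15 to 343 CPM of SST.

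The 10 tested genes whose log2 CPM followed SST most closely over the 21 libraries were CLU (r 0.95), PLPPR5 (0.95), ENSG00000287673 (0.94), GPR119 (0.92), MAGI2-AS3 (0.92), TCN2 (0.92), TTR (0.91), ALDH1A1 (0.91), BTG1 (0.91) and SKOR2 (0.91). CLU, which encodes the secreted chaperone clusterin, had 92.3 ± 2.73 CPM (SD, n = 3) in BFP-labelled ISL1-/- cells, against 756 ± 2.33 (SD, n = 2) in BFP-labelled WT cells. GPR119, a receptor for lipid amides, had 10.5 ± 4.55 and 224 ± 35.3 in the same groups. SKOR2, a transcriptional corepressor, was low, at 0.100 ± 0.026 and 2.06 ± 0.21. The closest genes to the others were SDC4 for HHEX (0.92), ARRDC4 for LEPR (0.93), RHOD for RBP4 (0.96), NPTX2 for CASR (0.92), CYSLTR2 for POU3F1 (0.84) and POLR2MP1 for BCHE (0.75).

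Of 10 other genes reported in delta cells, FRZB, a secreted antagonist of WNT ligands, followed the vector as HHEX did. FRZB had 24.9, 28.7 and 20.6 CPM with BFP and 199, 214 and 171 with ISL1 in ISL1-/-. It had 22.7, 8.27 and 10.1 CPM against 276 and 181 in PDX1-/-, and 121, 106 and 110 against 418, 250 and 625 in PAX6-/-. No pair of vector groups overlapped, as was so for 24.9%, 33.6% and 16% of all genes in ISL1-/-, PDX1-/- and PAX6-/-. FRZB rose, with a log2 difference of 2.98 (SE 0.42, adjusted p 0.0032), 4.06 (SE 0.46, adjusted p 9.18e-05) and 1.94 (SE 0.40, adjusted p 0.0444) in ISL1-/-, PDX1-/- and PAX6-/-, in that order. The value in PDX1-/- was kept with any library left out, but was lost with only the groups compared (adjusted p 0.216) and with limma voom (0.163). The value in PAX6-/- was lost with only the groups compared (0.49). That in ISL1-/- was lost without BFP replicate 3 (adjusted p 0.0517), and that in PAX6-/- in 5 of 7 such fits (adjusted p up to 0.245). In WT FRZB had 96.6 and 36.2 CPM with BFP and 157 and 221 with ISL1, a log2 difference of 1.51 (adjusted p 0.8). Against WT with BFP it fell in PDX1-/- (-2.28, adjusted p 0.0032), a call lost without WT with BFP replicate 1 (-1.40, adjusted p 0.132).

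ETV1, an ETS transcription factor, had 89.0 and 119 CPM in WT with BFP and 15.3 to 47.5 CPM in the knockouts with BFP. It fell, with a log2 difference of -2.53 in ISL1-/- (adjusted p 1.23e-05), -1.32 in PAX6-/- (adjusted p 0.00501) and -1.86 in PDX1-/- (adjusted p 0.000317). The call in PAX6-/- was lost without WT with BFP replicate 3 (adjusted p 0.0957). With the vector ETV1 rose in ISL1-/- (1.39, adjusted p 0.00931), a call lost in 3 of 8 fits with a library left out (adjusted p up to 0.0902). EDN3, the peptide endothelin 3, had 5.38 and 15.7 CPM in WT with BFP, 0.093 to 0.159 in ISL1-/- and 3.93 to 5.29 in PDX1-/-. It fell in ISL1-/- (-6.26, adjusted p 0.000724) and in PAX6-/- (-4.27, adjusted p 0.00697), the latter lost without WT with BFP replicate 3 (adjusted p 0.1).

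Over the list of 10, which also holds GHSR, PRG4, ERBB4, UNC5B, LY6H, CALB1 and PSIP1, those that fell against WT with BFP numbered 2 for ISL1-/-, 2 for PAX6-/- and 3 for PDX1-/-, and none rose. The medians of the log2 fold change were -0.80, -0.04 and -0.98, beside 0.03 for all genes tested in each comparison. The vector raised 0.027%, 0.251%, 0.17% and 8.19% of all genes in WT, ISL1-/-, PAX6-/- and PDX1-/-. Of the list of 10 it raised 0, 2, 1 and 1 in that order, and none fell. Without PAX6-/- with ISL1 replicate 3 these counts were 0, 3, 0 and 4, and without PDX1-/- with ISL1 replicate 4 they were 0, 3, 1 and 1. The medians were -0.12, 0.26, 0.35 and 0.53, beside 0.00, 0.03, 0.11 and 0.13 for all genes.

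The receptors through which somatostatin acts were also examined, with the related peptide CORT. Of the 6 genes, SSTR2 was the most abundant, with group means of 41.0 to 95.5 CPM per kb of exon, while SSTR4 had at most 16 and CORT at most 27 counts in any library. Of all genes, 3.92%, 3.26% and 5.65% fell against WT with BFP in ISL1-/-, PAX6-/- and PDX1-/-. Among these 6 genes, 0, 0 and 1 fell there, and none rose. The 1 was SSTR5, at 14.8 and 13.0 CPM in WT and 3.55, 3.04 and 3.30 in PDX1-/- (-2.07, SE 0.35, adjusted p 0.0014), kept with any library left out. With the vector, 3 of 6 fell in PDX1-/-, SSTR1 (-1.63, adjusted p 0.0236), SSTR2 (-1.09, adjusted p 0.0246) and SSTR3 (-1.64, adjusted p 0.0318), beside 4.33% of all genes lower, while SST was higher. Each of the 3 calls was lost without PDX1-/- with ISL1 replicate 4 (adjusted p up to 0.373) and in 2 other fits that left out a BFP library. All 3 were also lost with the replicate block (adjusted p 0.283 to 0.527), with only the groups compared (0.302 to 0.325) and with limma voom (0.631 to 0.752). None of the 6 passed with the vector in the other genotypes in edgeR's test. With limma voom, SSTR1, SSTR2 and SSTR3 passed in PAX6-/- (adjusted p 0.00299, 0.00397 and 0.0256), and SSTR2 and SSTR3 in ISL1-/- (0.0355 and 0.00534). With only the groups compared, SSTR1, SSTR2 and SSTR3 passed in ISL1-/- (0.014, 0.0162 and 0.0216), and with DESeq2 SSTR1 passed in PAX6-/- (0.0422).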

How the data were processed

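The authors deposited a table of raw counts per gene for 21 bulk libraries, with 1 column per library and featureCounts' columns of position and length per the file headers. STAR 2.7.11b, featureCounts 2.1.1 and GRCh38 are named in the submitters' processing notes; the annotation, the strand setting and the treatment of multimapping reads are not given in the sources used here. Of 62700 entries, 1 (ANK2, broken over 3 lines) was left out. Groups and replicate numbers were taken from the library names, and in 3 libraries the title carries another number.

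All libraries were fitted in 1 model with edgeR 4.0.16 (R 4.3.3): TMM scaling, a filter on low counts (minimum 10, total 15), which left 25884 genes, and the quasi-likelihood test, with p-values adjusted by Benjamini-Hochberg over all of them and a threshold of 0.05. The common biological coefficient of variation was 0.334. The fit was tested on simulated data. Alternatives were DESeq2 1.42.0, no filter, the replicate number as a block, only the groups compared, limma 3.58.1 voom with sample quality weights, and leaving out each library. Only PDX1-/- with ISL1 replicate 4 has the number 4, so the block fits it exactly. The voom weights were 0.092 and 0.099 for PDX1-/- with ISL1 replicates 2 and 4, and 0.071 for PAX6-/- with ISL1 replicate 3. Those of the other libraries were 0.723 to 2.582. The difference between the vector effects in ISL1-/- and PAX6-/- was added after seeing the data, as were the counts over lists without either of the 2 libraries that stand apart. Totals of 36.8 to 60.2 M counts set the precision, and no pair of libraries was identical. Between the vectors in PAX6-/-, deviations from the group mean in same-numbered libraries correlated at r 0.155 to 0.391 over 3 pairs. In ISL1-/- r was 0.099 to 0.293 over 3 pairs, which overlaps that range. WT and PDX1-/- had 1 pair each, at -0.039 and -0.212. The numbers were taken to pair the libraries in PAX6-/- alone, a choice that rests on these values and not on the labels. The reported fit used no pairing.

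All 7 genes are named, and from each list up to 4 genes past the threshold with the largest log2 difference per comparison. Likeness was Pearson's r of log2 CPM over the 21 libraries, with the 10 highest for SST and the 3 highest for the others. The 7 genes and the lists were chosen with earlier results of these data known. Promoters are from RefSeq (GRCh38.p14), with all 7 genes matched. Protein sequences were not used here.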

Additional observations from a re-analysis of the deposited data

Results flagged for a closer look

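The ISL1 vector effect on RBP4 differed between genotypes by a test of the difference itself. It was 4.46 on the log2 scale in PDX1-/- and 0.08 in WT, a difference of 4.38 (SE 1.04, adjusted p 0.0478 in edgeR's quasi-likelihood test). The ISL1-labelled PDX1-/- libraries had 85.9 CPM (replicate 2) and 994 CPM (replicate 4), and both lay above the 3 BFP-labelled libraries, at 19.6 to 32.7 CPM. The difference was 1.78 (adjusted p 0.524) without replicate 4. It also missed the threshold without any of the 3 BFP-labelled PDX1-/- libraries or any of the 4 WT libraries, with an adjusted p of 0.0709 to 0.299, and it was kept without PDX1-/- with ISL1 replicate 2 (5.26, adjusted p 0.000196). Of the 6 liver and endoderm markers, 5 passed in the same difference, all higher, beside 0.993% of all genes, and 0 passed without replicate 4. Their part in the RBP4 result was not tested.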

How the results depend on the processing

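Of the counts of the 7 genes past the threshold, 55 of 85 values from other settings and 98 of 136 with a library left out stayed within 1.5 times the reported count. Of the values of single genes, 504 of 578 and 874 of 952 kept their side of the threshold without a reversed call. A change of sign with no call in either fit is counted among these. For SST with the vector in PAX6-/-, the reported 1.42 went down to -0.42 in other settings. The vector comparison in WT (0 genes) gave 1 under DESeq2, 1 with no filter, 1 with only the groups compared and 1 with limma voom. That in ISL1-/- (1) gave 2 with no filter, 2 with the replicate block, 4 with only the groups compared and 4 with voom. That in PAX6-/- (1) gave 3 with the block, 0 with only the groups compared and 2 with voom. That in PDX1-/- (4) gave 1 with the block, 0 with only the groups compared and 0 with voom. Against WT with the ISL1 vector, ISL1-/- (2) gave 4 under DESeq2, 5 with the block, 7 with only the groups compared and 7 with voom. PAX6-/- (2) gave 1 with only the groups compared and 4 with voom, and PDX1-/- (0) gave 2 under DESeq2, 2 with no filter and 1 with the block. With BFP, ISL1-/- against PDX1-/- (2) gave 4 with only the groups compared and 4 with voom, and PAX6-/- against PDX1-/- (0) gave 1 with voom. The difference in vector effect between ISL1-/- and WT (0) gave 1 with only the groups compared. That between PDX1-/- and WT (1) gave 0 with the block, 0 with only the groups compared and 0 with voom. The cause was not tested.

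With a library left out, the vector counts ran from 0 to 1 in WT, 1 to 2 in ISL1-/-, 1 to 3 in PAX6-/- and 1 to 5 in PDX1-/-. Against WT with BFP they ran from 2 to 6, 2 to 4 and 3 to 5 for ISL1-/-, PAX6-/- and PDX1-/-, and with the ISL1 vector from 1 to 4, 1 to 3 and 0 to 4. ISL1-/- against PAX6-/- ran from 1 to 3, ISL1-/- against PDX1-/- from 1 to 2, and the PDX1-/- minus WT difference from 0 to 3. PAX6-/- against PDX1-/- and the other 3 differences stayed at 0. The direction turned for LEPR with the vector in PDX1-/- without ISL1 replicate 2 (-1.17, adjusted p 0.0215 in edgeR), where values with a library left out ran from -1.173 to 0.669. It also turned for CASR without ISL1 replicate 4, where they ran from -0.051 to 3.175. Among values not past the threshold in the reported fit, the sign changed in further cases. SST with the vector in PAX6-/- ran from -0.548 to 1.901 with a library left out. In PDX1-/- against WT with the ISL1 vector, SST ran from -0.4 to 1.156 and RBP4 from -1.904 to 1.605. A group left with 1 library takes its spread from the other groups. The labels do not say whether same-numbered libraries share more than a number, in PAX6-/- or elsewhere. POU3F1, with 5 to 84 counts per library, had the least depth of the 7 genes.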

Other observations

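Transcription factors and genes of prohormone processing were also counted. Of 16 transcription factors of SST and of endocrine lineages, 1 rose with the vector in ISL1-/-, 1 fell in PAX6-/- and 2 fell in PDX1-/-, beside 0.382%, 0.355% and 12.5% of all genes passing. The 2 of 16 in PDX1-/- are the same share as that of all genes. The 1 in PAX6-/- was 0 without PAX6-/- with ISL1 replicate 3, and the 2 in PDX1-/- were 1 without PDX1-/- with ISL1 replicate 4. Against WT with BFP, 1 rose and 2 fell in ISL1-/-, 3 rose in PAX6-/-, and 2 rose and 2 fell in PDX1-/-, beside 5.59%, 5.51% and 9.68% of all genes passing. In PAX6-/- the counts were 3 higher and 2 lower without the first of these libraries, and 4 and 2 without the second. Of 5 genes of prohormone processing, 2 fell in ISL1-/-, among them CPE, carboxypeptidase E (-1.81, adjusted p 0.00122 in edgeR's test). In PAX6-/- 1 fell, and in PDX1-/- 1 rose and 1 fell. Of all genes, 3.92%, 3.26% and 5.65% fell in ISL1-/-, PAX6-/- and PDX1-/-, and 4.03% rose in PDX1-/-.

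UCN3, which encodes urocortin 3, a peptide of beta cells that acts on delta cells, differed between both libraries of PDX1-/- with ISL1. Replicate 4 had 293 counts, and the other PDX1-/- libraries had 0 to 2. PAX6-/- libraries had 0 to 10, ISL1-/- libraries 111 to 156 and WT libraries 49 to 129. UCN3 was picked from its list after its values were seen.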
